A study of Mus musculus with 10 samples.

Results

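RNA levels of DEAD-box RNA helicases were compared between Dhx16 knockout and control samples of sorted mouse blood stem cells. The genes were all protein-coding rows of the authors' deposited table whose symbol begins with Ddx and a digit, which gave 37 genes of 52097 in the table. The knockout group was 5 samples titled Dhx16_CKO, with the genotype label KO, and the control group was 5 samples titled Dhx16_fl, with the genotype label WT. The titles point to a floxed Dhx16 gene in both groups and to a conditional knockout in the first, and the labels name no Cre line, no inducing agent, no age and no strain. Each sample was about 5000 bone marrow cells sorted for c-Kit, Sca-1 and CD150 and against lineage markers and CD48, the surface pattern of haematopoietic stem cells. Their polyadenylated RNA was amplified with a kit for small inputs and sequenced. The library columns carry the names CKO7, CKO8, CKO9, CKO12 and CKO13 for the knockouts and WT2, WT3, WT4, WT5 and WT6 for the controls, and values per library are given in that order.

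DEAD-box proteins are ATP-driven enzymes that clamp or pry apart short stretches of RNA and strip proteins from it, and they take their name from the amino acids Asp-Glu-Ala-Asp in their shared helicase core. Different members serve successive steps in the life of an RNA, among them ribosomal RNA processing in the nucleolus, assembly of the spliceosome, export through the nuclear pore, start of translation, storage in cytoplasmic granules, and detection of viral RNA. Dhx16 belongs to the neighbouring DEAH-box family and, like Prp2 of yeast, remodels the spliceosome before the first step of splicing.

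All levels are FPKM, which divides the fragments of a gene by its transcript length and by library size, in the form the authors deposited them. A change is the difference of log2(FPKM + 1), knockout minus control, with its standard error (SE) from limma, and a gene was called when its Benjamini-Hochberg adjusted p over all tested genes was under 0.05. A gene was tested when it reached 10 FPKM in at least 5 of the 10 libraries. Of the 37 helicases 27 passed and 10 did not. Ddx20, Ddx23, Ddx51 and Ddx55 reached 10 FPKM in 4, 3, 3 and 3 control libraries and so needed knockout libraries to pass. Ddx6 and Ddx60 did not pass, with 0 knockout libraries and 4 and 3 control libraries at 10 FPKM.

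FPKM summed to 877099 to 966648 in knockout libraries and 770789 to 957520 in control libraries. The size factors of the authors, which follow sequencing depth, were 0.734 to 1.26 in knockout libraries and 0.983 to 1.36 in control libraries. Dhx16 itself was at 9.49 ± 1.56 FPKM in knockout and 17.5 ± 3.81 FPKM in control libraries (SD, n = 5 each), a change of -0.81 (limma adjusted p = 0.000638). The knockout libraries differed from the controls in markers of several cell types. Summed FPKM of 8 erythroid markers was 753 to 1177 in knockout and 119.8 to 397 in control libraries, with 8 of 8 called higher (21.1% of all tested genes). Klf1, Ermap, Rhd, Rhag and Car1 of this list were under 10 FPKM in at least 1 control library. They therefore needed knockout libraries, where they were high, to pass the filter. For 7 megakaryocyte markers the sums were 708 to 1385 in knockout and 1487 to 2135 in control libraries, with 7 of 7 called lower (31.6% of all tested genes). For 6 macrophage markers they were 10.6 to 27.5 in knockout and 117 to 272 in control libraries, and 3 of the 3 tested were called lower. Of these, C1qa and C1qc passed the filter through control libraries alone, as did Clec1b of the megakaryocyte list. Their knockout libraries reached at most 9.67, 4.51 and 6.36 FPKM, so the filter kept these genes only because they were high in control libraries. C1qb, Tubb1 and Gp1bb also needed control libraries to pass, with lowest knockout values of 3.63, 3.24 and 6.76 FPKM. For 9 sort and stem cell markers, Cd48 among them, the sums were 429 to 664 in knockout and 615 to 911 in control libraries. Cd48, against which the cells were sorted, was under the filter. Of the 8 tested, 5 were called lower in limma (31.6% of all tested genes), while the authors' deposited table has only 2 lower and 0 higher. Slamf1, called lower, needed control libraries to pass, with a lowest knockout value of 9.4 FPKM. Kit, Flt3 and Ly6a were not called, with changes of -0.36, -0.54 and 0.11 (limma adjusted p = 0.144, 0.0732 and 0.692). Calls of these markers with median-of-ratios scaling are not given here. Bone matrix genes (4549 to 47778 in knockout, 3180 to 65871 in control libraries) and granulocyte genes (8348 to 40842 in knockout, 9623 to 74170 in control libraries) overlapped between the groups, with 0 called in limma and 0 in the authors' deposited table, and with 0 bone matrix genes and 1 granulocyte gene at an unadjusted p under 0.05. No gene of these lists was at 0 in every library. The part of these other cells in the helicase levels was not tested. In bulk RNA, fewer cells of a type and less RNA per cell cannot be told apart.

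Scaling between libraries mattered for the whole table. As deposited, the 6913 tested genes had a median change of -0.12, and 21.1% of them were called higher and 31.6% lower. With median-of-ratios scaling, the kind of scaling that DESeq2 applies, the median change was 0.25, and 44.2% were called higher and 11.8% lower. In the authors' deposited table, which is made from counts, 17.1% of 23405 genes with an adjusted p were higher and 11.5% lower at the same threshold. That wider set includes genes under the 10 FPKM filter, so its shares are not a matched background for the helicases. Shares of the authors' calls over the 6913 tested genes are not given here. Results are therefore given on the deposited scale, with the median-of-ratios result beside them where it changes the call of a named gene, and related genes are also compared within a library, where scaling has almost no part.

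Of the 27 tested helicases, 10 were called higher in knockout cells (Ddx1, Ddx18, Ddx20, Ddx21, Ddx27, Ddx39, Ddx39b, Ddx46, Ddx55 and Ddx56), against 21.1% of all tested genes. Ddx17, Ddx50 and Ddx58 made up the 3 called lower, against 31.6% of all tested genes. The other 14 lay between -0.30 and 0.57 on the log2 scale and were not called. The median change of the 27 was 0.26, against -0.12 over all tested genes. With median-of-ratios scaling, 21 were called higher (44.2% of all tested genes) and 1 lower (11.8%), with a median of 0.64 against 0.25 over all tested genes. The authors' deposited table has 36 of the genes tested, of which 26 were higher (17.1% of all its genes) and 3 lower (Ddx17, Ddx25 and Ddx60, against 11.5%). Ddx1, Ddx20, Ddx27, Ddx39 and Ddx39b were higher and Ddx17 was lower under all scalings tried, which were the deposited values, median-of-ratios, upper-quartile, equal totals and a shift to the fold changes of the authors. Knockout libraries lay wholly above the controls for 5 of the 27 (background 12.9%) and wholly below for 3 (background 22.1%).

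**Figure D1:**
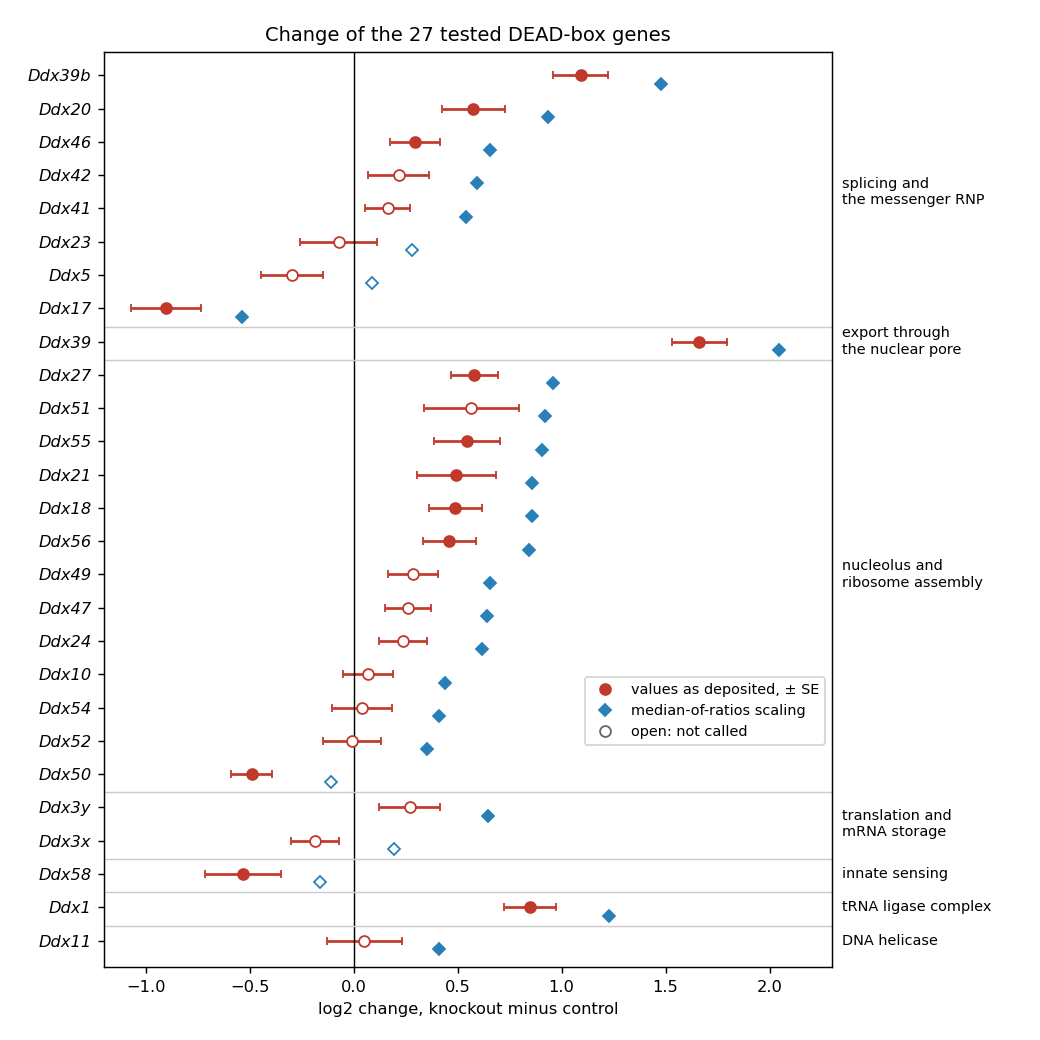
Change of the 27 tested DEAD-box genes, ordered by role, as log2 difference knockout minus control (horizontal axis). Circles are values as deposited with their SE, diamonds are values after median-of-ratios scaling, and open symbols were not called. Ddx39 (1.66) and Ddx39b (1.09) lie farthest to the right and Ddx17 (-0.90) farthest to the left on the deposited scale.

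The helicases spanned a wide range of levels, and Ddx5 alone dominated their sum. Ddx5 (p68), a nuclear helicase with parts in splicing, microRNA processing and transcription, was at 1264, 1091, 1021, 1178 and 806 FPKM in the knockout libraries and at 1335, 1342, 1139, 1512 and 1211 FPKM in the control libraries. It ranked first in both groups, the groups overlapped, and its change of -0.30 (SE 0.15) was not called (limma adjusted p = 0.104). With equal totals it was called lower, at -0.44 (limma adjusted p = 0.0124), and with median-of-ratios scaling the sign turned, at 0.09 (limma adjusted p = 0.691). The summed FPKM of the 37 genes was 2461 ± 184 in knockout and 2255 ± 161 in control libraries (SD, n = 5 each). Ddx5 held 36.8% to 50.02% of that sum in knockout libraries, where its mean share was 43.5%, and 54.6% to 64.0% in control libraries, where it was 57.9%, so its share was below the control range in each knockout library. Of the remainder, Ddx39 and Ddx39b together held 41.2% to 42.8% in knockout and 21.4% to 26.3% in control libraries.

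**Figure D2:**
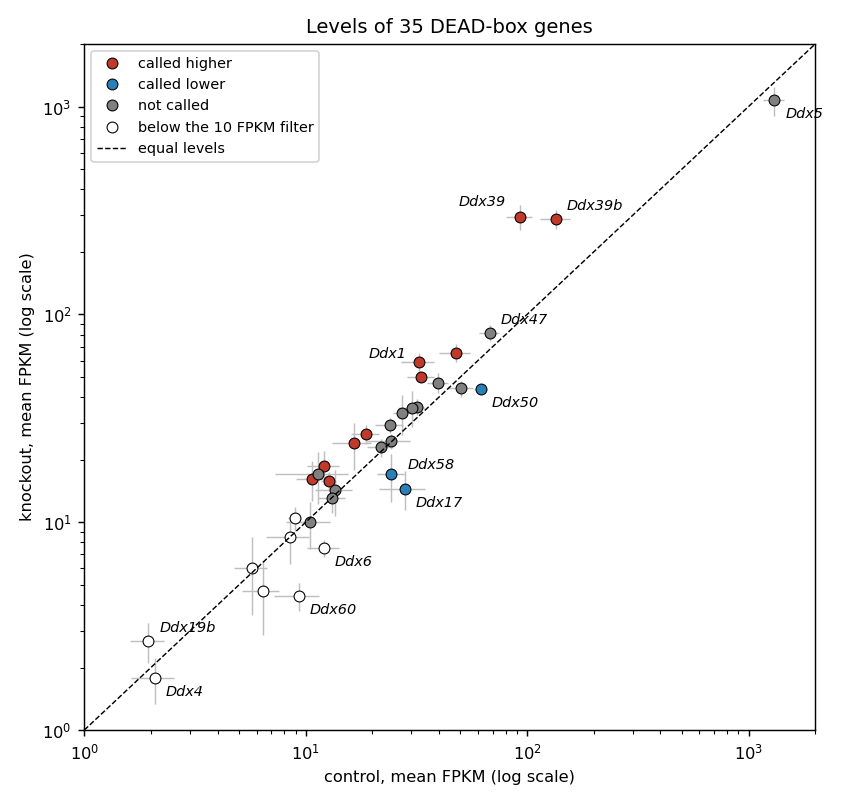
Mean FPKM of the 35 DEAD-box genes whose control mean was at least 1 FPKM, knockout (vertical) against control (horizontal), on log axes. Bars are the SD over 5 libraries and the dashed line marks equal levels. Ddx39 and Ddx39b lie above the line, Ddx17, Ddx50, Ddx58, Ddx6 and Ddx60 below it, and Ddx5 is at the top right.

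Ddx39 and Ddx39b carried the 2 largest rises. The proteins are close relatives of the yeast helicase Sub2. Ddx39b (UAP56) helps U2 snRNP to bind the branch point and is part of TREX, the complex that couples transcription and splicing to export, and Ddx39 (URH49, also called Ddx39a) acts in mRNA export. Ddx39 (ENSMUSG00000005481, mm10 chromosome 8, 83715177 to 83726892) was at 284, 346, 300.3, 237 and 309.6 FPKM in the knockout libraries and at 107, 89.0, 93.6, 74.8 and 98.9 FPKM in the control libraries. The lowest knockout library was more than double the highest control library. Its change was 1.66 (SE 0.13, limma adjusted p = 1.29e-06) and 2.04 with median-of-ratios scaling. In the authors' deposited table its log2 fold change was 2.03 with an adjusted p of 3.13e-78, which is rank 1 of all genes there by p. On the deposited FPKM it ranked 8 by p and 66 by size of rise among the 6913 tested genes. Adgre5 overlaps it on the opposite strand and was at 12.2 FPKM in knockout and 21.3 FPKM in control libraries, well under Ddx39 in both. The strand setting of the counting is not given in the sources used here.

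Ddx39b (ENSMUSG00000019432, chromosome 17, 35241746 to 35253707) was at 288, 306, 327, 254 and 265 FPKM in the knockout libraries and at 158, 132, 155, 107 and 124 FPKM in the control libraries. Here too the groups did not overlap, and the change was 1.09 (SE 0.13, limma adjusted p = 1.51e-05). The gene contains the snoRNA genes Gm22589, at a mean of 9.65 FPKM in knockout libraries and listed at 0 in control libraries, and Gm25128, at 10.9 FPKM in knockout and 119 FPKM in control libraries. For these snoRNA genes only group means were taken, which a single library can set, and their differences were not tested. Ddx39 rose by more than Ddx39b. Within a library, the log2 ratio of Ddx39b over Ddx39 was -0.03 ± 0.16 in knockout and 0.54 ± 0.14 in control libraries (SD, n = 5 each). That difference of -0.57 gave an exact permutation p of 0.00794 (two-sided, the smallest that 5 against 5 libraries allow) and an adjusted p of 0.0159 over the 4 pairs tested. Ddx39b was 0.856 to 1.09 times Ddx39 in FPKM in knockout libraries, and 1.26 to 1.66 times in control libraries. How reads that match both paralogues were assigned is not given in the sources used here.

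The promoter window of Ddx39b is shown because it is the largest rise with a window listed under its symbol in the RefSeq set used. Windows were looked up by symbol, and none was listed under the symbol Ddx39. Each window is 300 bases around a RefSeq start on GRCm38.p6, which shares its coordinates with mm10. Capitals mark matches on either strand to the ETS core CCGGAA, to the GC box, which is read as GGGCGG, or to the CCAAT box. The E-box CACGTG was searched in the same way and is in none of the windows shown, and no matches overlap in them. Where RefSeq lists 2 windows (Ddx17 and Ddx50), the one nearest the annotated gene start is shown. This window, chr17:35241496-35241795 on the plus strand, holds 2 ETS cores and none of the other motifs.
Ddx39b: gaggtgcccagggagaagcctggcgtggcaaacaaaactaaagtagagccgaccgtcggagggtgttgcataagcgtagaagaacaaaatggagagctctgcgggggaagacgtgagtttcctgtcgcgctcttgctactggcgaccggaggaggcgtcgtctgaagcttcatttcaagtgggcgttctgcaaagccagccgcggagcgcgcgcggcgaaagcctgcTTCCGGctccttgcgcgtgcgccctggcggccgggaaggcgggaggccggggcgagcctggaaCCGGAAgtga
Over the 40 windows of 33 helicase genes, an ETS core was present in 40%, a GC box in 57.5%, a CCAAT box in 50% and an E-box in 10%. Over all 32851 RefSeq windows the shares were 14.9%, 35.7%, 37.4% and 7.15%. Those windows were not limited to genes read in these cells, so they are an unlike set, and the difference was not tested. A match is a run of letters and not a measured binding site.

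Among partners of these export helicases, the share called higher on the deposited scale was near the background. Of 12 tested genes of TREX and the export receptor, 3 were called higher and 1 lower (21.1% and 31.6% of all tested genes), with a median change of 0.20 against -0.12 over all tested genes. Sarnp, which binds Ddx39b, was at 86.0 ± 3.52 FPKM in knockout and 61.3 ± 15.4 FPKM in control libraries (change 0.52). Chtop, another TREX component, was at 98.7 ± 11.3 FPKM in knockout and 70.7 ± 8.91 FPKM in control libraries (change 0.48). Zc3h11a, a zinc-finger protein of TREX, fell by 0.90 and was lower under all scalings, at 21.3 ± 3.50 FPKM in knockout and 40.7 ± 7.43 FPKM in control libraries, but not in the authors' deposited table (log2 fold change -0.27, adjusted p = 0.434). The export receptor Nxf1 was not called (99.8 ± 9.34 FPKM in knockout, 93.8 ± 10.9 FPKM in control libraries), and median-of-ratios scaling called 11 of the 12 higher, Nxf1 among them (0.47), and 1 lower (44.2% and 11.8% of all tested genes). The authors' deposited table has 11 of the 12 higher and 0 lower, against 17.1% and 11.5% of its wider set of genes.

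At the pore itself, Ddx19a and Ddx19b release export factors from mRNA as it reaches the cytoplasm. Both were under the filter. Ddx19a was at 3.86, 6.89, 6.56, 3.41 and 9.51 FPKM in the knockout libraries and at 6.95, 6.43, 5.76, 4.90 and 4.67 FPKM in the control libraries. Ddx19b was at 2.81, 3.05, 2.59, 1.74 and 3.27 FPKM in the knockout libraries and at 2.19, 1.89, 1.40, 1.97 and 2.29 FPKM in the control libraries. The groups overlapped for both genes, and the log2 ratio of Ddx19b over Ddx19a was -0.87 ± 0.37 in knockout and -1.19 ± 0.29 in control libraries (exact permutation p = 0.159, n = 5 each). In the authors' deposited table both were higher, with log2 fold changes of 0.69 and 0.62 (adjusted p = 0.0017 and 0.00531). Of their partners, Gle1 and Nup214 were tested, and on the deposited scale 0 of 2 were called in limma and 0 had an unadjusted p under 0.05. With median-of-ratios scaling Gle1 was called higher (0.23) and Nup214 was not called (0.22), and both were higher in the authors' deposited table (adjusted p = 5.28e-06 and 0.00373). Ddx25, a testis helicase, was at 0.07 to 0.13 FPKM in knockout and 0.28 to 0.35 FPKM in control libraries, and the authors' deposited table has it lower (log2 fold change -1.25, adjusted p = 0.00113).

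Of 8 helicases of splicing and the messenger RNP, 3 were called higher (Ddx39b, Ddx20 and Ddx46) and 1 lower (Ddx17), against 21.1% and 31.6% of all tested genes, with a median change of 0.19. With median-of-ratios scaling 5 were higher and 1 lower (44.2% and 11.8% of all tested genes). The authors' deposited table has 6 of the 8 higher and 1 lower, against 17.1% and 11.5% of its wider set of genes. Ddx46 (Prp5), which remodels U2 snRNP as it meets the intron, was at 14.7, 16.7, 17.6, 13.6 and 16.6 FPKM in the knockout libraries and at 11.97, 13.1, 12.4, 11.8 and 14.3 FPKM in the control libraries. Its change was 0.29 (SE 0.12) with a limma adjusted p of 0.0498, just under the threshold, the groups overlapped, and the call was lost in 12 of 23 alternative settings, among them the omission of any one of 8 libraries. Ddx42, which works with the SF3B part of U2 snRNP, was at 35.6 ± 6.98 FPKM in knockout and 30.2 ± 3.98 FPKM in control libraries (change 0.22, limma adjusted p = 0.222). It was called higher with median-of-ratios scaling (0.59, limma adjusted p = 0.00191) and in the authors' deposited table (log2 fold change 0.63, adjusted p = 0.000199). Ddx23 (Prp28), which helps U6 to take the place of U1 at the intron start, was at 9.98 ± 2.57 FPKM in knockout and 10.5 ± 2.36 FPKM in control libraries and was not called under any scaling of the FPKM. The authors' deposited table gives it a log2 fold change of 0.41 (adjusted p = 0.0248).

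Ddx41, a helicase of the spliceosome known for inherited variants in myeloid cancers, was at 33.1, 37.9, 40.7, 33.5 and 34.5 FPKM in the knockout libraries and at 35.0, 33.6, 32.0, 29.2 and 29.9 FPKM in the control libraries. The groups overlapped and its change of 0.16 (SE 0.11) was not called (limma adjusted p = 0.215), while median-of-ratios scaling gave 0.54 (limma adjusted p = 0.000252). Ddx20 (Gemin3), a member of the SMN complex that loads Sm rings onto small nuclear RNAs, was at 16.1, 20.9, 22.5, 14.2 and 19.1 FPKM in the knockout libraries and at 15.2, 12.7, 11.3, 11.4 and 9.86 FPKM in the control libraries. The groups overlapped through CKO12, the lowest knockout library, and WT2, the highest control library, and the change was 0.58 (SE 0.15, limma adjusted p = 0.0047). Of its 7 tested partners in the SMN complex, 3 were called higher and 0 lower (21.1% and 31.6% of all tested genes), and 5 and 0 with median-of-ratios scaling (44.2% and 11.8%). Gemin6 was at 21.3 ± 4.20 FPKM in knockout and 13.5 ± 4.98 FPKM in control libraries (change 0.66), Strap at 75.8 ± 7.59 FPKM in knockout and 50.8 ± 6.94 FPKM in control libraries (change 0.57), and Smn1 at 32.9 ± 10.2 FPKM in knockout and 21.4 ± 4.57 FPKM in control libraries (change 0.56).

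Ddx17 (p72), the paralogue of Ddx5 with overlapping functions in splicing and microRNA processing, was the 1 helicase of the 27 tested called lower under all scalings. The 10 helicases under the filter, Ddx60 among them, were not fitted under the other scalings. Levels of Ddx17 were 15.9, 15.6, 18.3, 11.96 and 10.8 FPKM in the knockout libraries and 39.1, 23.5, 27.1, 27.4 and 22.9 FPKM in the control libraries. All knockout libraries lay below all controls, WT2 was the highest control, and the change was -0.90 (SE 0.17, limma adjusted p = 0.000405), or -0.78 without WT2 (limma adjusted p = 0.00127). With median-of-ratios scaling it was -0.53 (limma adjusted p = 0.0105), and in the authors' deposited table -0.55 (adjusted p = 0.0121). Kdelr3 overlaps Ddx17 on the opposite strand and was at 9.94 FPKM in knockout and 11.1 FPKM in control libraries, and reads from the stretch they share cannot be told apart without strand. Set against Ddx5 within a library, Ddx17 was lower in knockout cells, with a log2 ratio of -6.12 ± 0.28 in knockout and -5.51 ± 0.31 in control libraries (SD, n = 5 each). The difference was -0.61 (exact permutation p = 0.0238, adjusted p = 0.0317 over 4 pairs). The groups overlapped, and the adjusted p rose to 0.0529 without CKO7 or without CKO12.

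The promoter window of Ddx17, chr15:79546692-79546991 on the minus strand, is shown for comparison with that of Ddx39b. Ddx17 was the tested helicase called lower under all scalings. Its window holds 1 ETS core and 1 GC box.
Ddx17: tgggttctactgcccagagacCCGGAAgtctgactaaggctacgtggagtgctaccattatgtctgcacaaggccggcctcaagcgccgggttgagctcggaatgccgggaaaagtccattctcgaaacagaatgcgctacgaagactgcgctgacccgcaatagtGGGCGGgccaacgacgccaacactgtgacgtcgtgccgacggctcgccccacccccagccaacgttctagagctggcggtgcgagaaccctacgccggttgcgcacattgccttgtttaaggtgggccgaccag

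**Figure D3:**
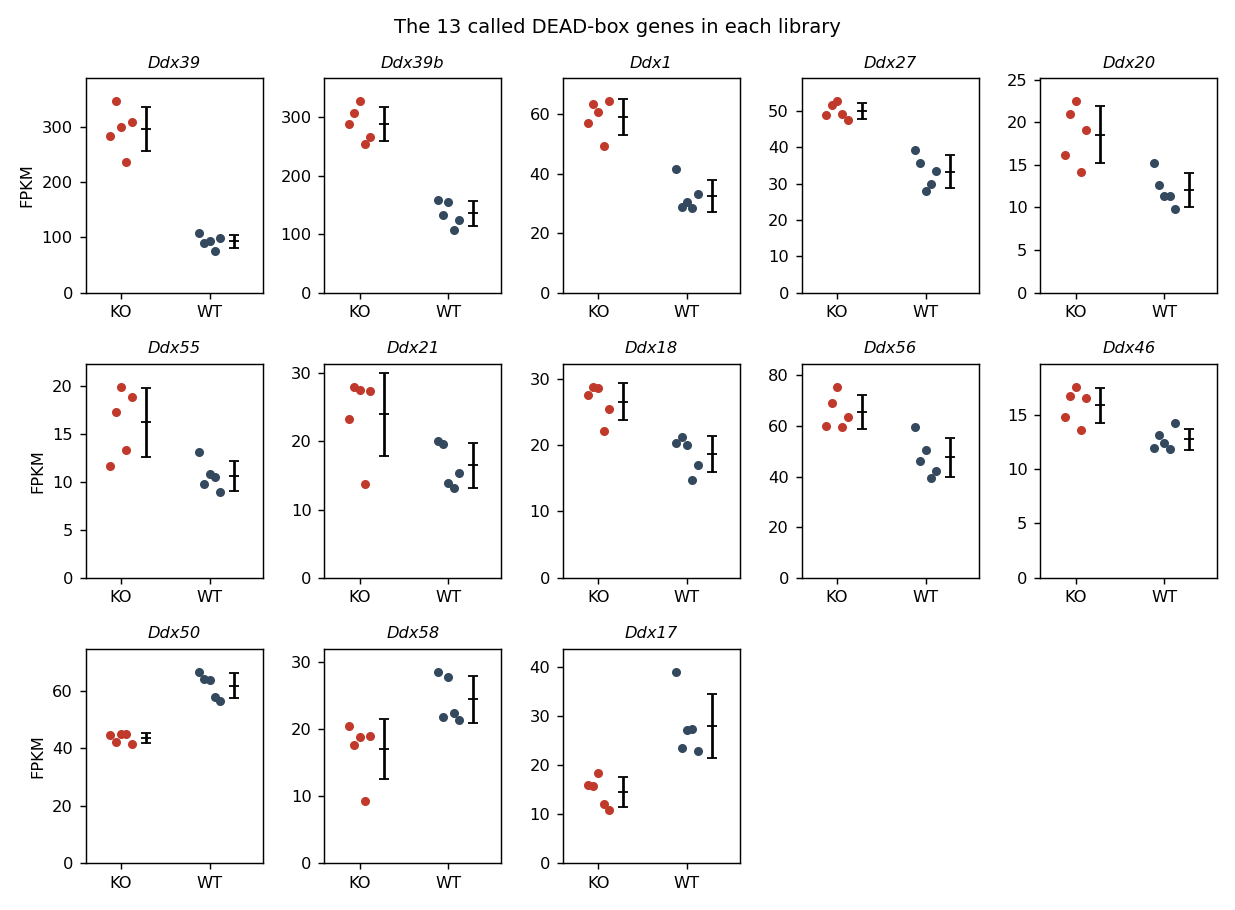
FPKM of the 13 called DEAD-box genes in each library, knockout (KO, red) left and control (WT, dark) right, in order of change. Bars beside the points are mean and SD over 5 libraries. The groups are apart for Ddx39, Ddx39b, Ddx1, Ddx27, Ddx18, Ddx50, Ddx58 and Ddx17, and overlap for Ddx20, Ddx55, Ddx21, Ddx56 and Ddx46.

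The exon junction complex, which is left on mRNA by splicing and has the DEAD-box protein Eif4a3 at its core, had 4 of 5 tested genes called higher and 0 lower, against 21.1% and 31.6% of all tested genes. Their median change was 0.43, against -0.12 over all tested genes, and median-of-ratios scaling called 5 of 5 higher (background 44.2%). Eif4a3, whose symbol keeps it outside the Ddx series, was at 308 ± 14.5 FPKM in knockout and 181 ± 21.9 FPKM in control libraries (change 0.77). Rnps1, a splicing activator that joins the complex, was at 168 ± 9.94 FPKM in knockout and 106 ± 15.3 FPKM in control libraries (change 0.67). Both were higher under all scalings. Of 8 tested DEAH-box helicases, 2 were called higher and 1 lower (background 21.1% and 31.6%), and the lower one was the targeted gene, and Dhx15, which takes spent spliceosomes apart, was at 73.9 ± 14.7 FPKM in knockout and 48.2 ± 3.66 FPKM in control libraries (change 0.58). Dhx30, a helicase of mitochondrial RNA, was at 61.6 ± 10.7 FPKM in knockout and 44.9 ± 8.19 FPKM in control libraries (change 0.45).

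Nucleolar helicases, which act in the folding and trimming of pre-ribosomal RNA, were the largest group. Of 14 such genes 13 were tested, and 5 were called higher (Ddx18, Ddx21, Ddx27, Ddx55 and Ddx56), 1 lower (Ddx50) and 7 not called, with 11 changes above 0 and a median of 0.28. Of all tested genes 21.1% were called higher and 31.6% lower. With median-of-ratios scaling 12 of the 13 were called higher and 0 lower (background 44.2% and 11.8%). The authors' deposited table has 13 of 14 higher, against 17.1% of its wider set of genes, which is not a matched background. Ddx27, whose yeast relative Drs1 acts in the large subunit, was at 48.8, 51.6, 52.6, 49.2 and 47.4 FPKM in the knockout libraries and at 39.3, 35.8, 27.97, 29.9 and 33.4 FPKM in the control libraries. Its groups did not overlap, the knockout SD was 2.12 FPKM, and the change of 0.58 (SE 0.11, limma adjusted p = 0.000595) was called under all scalings. Ddx18, relative of yeast Has1, was at 27.6, 28.8, 28.6, 22.1 and 25.5 FPKM in the knockout libraries and at 20.4, 21.2, 20.03, 14.8 and 17.0 FPKM in the control libraries. These groups were also apart (change 0.49, SE 0.13, limma adjusted p = 0.00482), and the call was lost with equal totals (limma adjusted p = 0.0595).

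Ddx55 and Ddx56, relatives of yeast Spb4 and Dbp9 of the large subunit pathway, overlapped between groups. Ddx55 was at 11.7, 17.3, 19.9, 13.3 and 18.8 FPKM in the knockout libraries and at 13.1, 9.82, 10.8, 10.5 and 8.94 FPKM in the control libraries (change 0.55, SE 0.16, limma adjusted p = 0.00930). Ddx56 was at 59.9, 69.2, 75.6, 59.4 and 63.6 FPKM in the knockout libraries and at 59.5, 46.3, 50.5, 39.4 and 42.4 FPKM in the control libraries (change 0.46, SE 0.13, limma adjusted p = 0.00622). In both genes WT2 was the highest control and alone reached the knockout range, and both calls were lost with equal totals. Ddx51, relative of yeast Dbp6, had the largest SE of the nucleolar genes, with 17.1 ± 4.82 FPKM in knockout and 11.4 ± 4.15 FPKM in control libraries, and its change of 0.57 (SE 0.23) missed the threshold (limma adjusted p = 0.0524). It was called with median-of-ratios scaling (0.92, limma adjusted p = 0.00601). Ddx47, Ddx49 and Ddx24 were not called, at 0.26, 0.28 and 0.24 (limma adjusted p = 0.0592, 0.0567 and 0.0983). The first 2 are relatives of yeast Rrp3 and Dbp8 of the small subunit pathway and the last of yeast Mak5. Ddx10, Ddx54 and Ddx52, relatives of yeast Dbp4, Dbp10 and Rok1, lay between -0.01 and 0.07 and were not called. With median-of-ratios scaling all 6 of these were called higher, Ddx47, Ddx49 and Ddx24 at 0.64, 0.66 and 0.62, and Ddx10, Ddx54 and Ddx52 at 0.44, 0.41 and 0.35. Ddx31, relative of yeast Dbp7, was under the filter, at 8.49 ± 2.17 FPKM in knockout and 8.47 ± 1.85 FPKM in control libraries, and was higher in the authors' deposited table (log2 fold change 0.45, adjusted p = 0.0396).

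Ddx21 and Ddx50 are paralogues that lie 13.6 kb apart on chromosome 10 and on the same strand, and on the deposited scale they moved in opposite directions. Ddx21, which ties transcription by RNA polymerase I to rRNA processing, was at 23.3, 28.02, 27.5, 13.7 and 27.4 FPKM in the knockout libraries and at 20.1, 19.7, 13.9, 13.2 and 15.4 FPKM in the control libraries. CKO12 lay within the control range and the other 4 knockouts above it. The change was 0.49 (SE 0.19, limma adjusted p = 0.0391), and the call was lost in 12 of 24 alternative settings, among them the omission of any one of 7 libraries. Ddx50 was at 44.6, 42.0, 45.1, 45.0 and 41.6 FPKM in the knockout libraries and at 66.7, 64.0, 63.7, 58.0 and 56.6 FPKM in the control libraries. Every knockout library lay below every control (change -0.49, SE 0.10, limma adjusted p = 0.000758). After median-of-ratios scaling the change was -0.11 and not called (limma adjusted p = 0.346), and in the authors' deposited table the log2 fold change was -0.09 (adjusted p = 0.613).

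The ratio of the pair hardly depends on scaling. The log2 ratio of Ddx50 over Ddx21 was 0.88 ± 0.45 in knockout and 1.86 ± 0.21 in control libraries (SD, n = 5 each), and the groups were apart by a narrow margin, with CKO12 at 1.649 and the lowest control library at 1.653. The difference was -0.98 (exact permutation p = 0.00794, adjusted p = 0.0159 over 4 pairs). In plain FPKM, without the added 1, Ddx50 was 1.4996 to 3.29 times Ddx21 in knockout and 3.25 to 4.58 times in control libraries, so the groups overlapped there through CKO12. With pseudocounts of 0.1 and 0.5 the differences were -1.01 and -0.9999, each with an adjusted p of 0.0212 by the exact permutation test.

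Both promoter windows are shown because the neighbours moved apart. That of Ddx21 (chr10:62602249-62602548, minus strand) holds 1 GC box. That of Ddx50 (chr10:62651169-62651468, minus strand) holds 2 CCAAT boxes, 2 GC boxes and 2 ETS cores, each count over both strands.
Ddx21: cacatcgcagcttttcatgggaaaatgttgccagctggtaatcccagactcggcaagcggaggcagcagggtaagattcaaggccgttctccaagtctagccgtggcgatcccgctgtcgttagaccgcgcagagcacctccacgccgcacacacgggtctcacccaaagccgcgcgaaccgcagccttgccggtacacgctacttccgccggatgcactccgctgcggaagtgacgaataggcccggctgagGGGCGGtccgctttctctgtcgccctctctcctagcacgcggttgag
Ddx50: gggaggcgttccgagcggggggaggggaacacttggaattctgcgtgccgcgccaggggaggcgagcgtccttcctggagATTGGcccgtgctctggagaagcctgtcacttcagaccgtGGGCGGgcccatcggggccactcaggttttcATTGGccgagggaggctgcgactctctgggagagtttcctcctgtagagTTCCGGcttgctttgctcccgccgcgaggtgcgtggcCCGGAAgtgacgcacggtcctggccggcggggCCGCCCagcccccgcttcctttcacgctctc

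**Figure D4:**
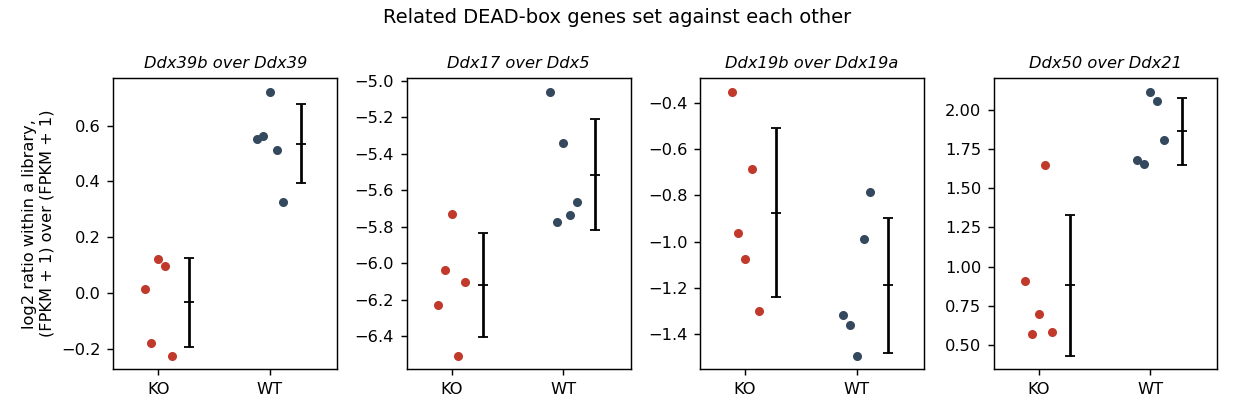
Log2 ratio of (FPKM + 1) between related DEAD-box genes within each library, knockout (KO, red) left and control (WT, dark) right, with mean and SD over 5 libraries beside the points. Each panel has its own vertical scale. The ratios of Ddx39b over Ddx39 and, by a narrow margin and on this scale, Ddx50 over Ddx21 are lower in all knockout libraries, that of Ddx17 over Ddx5 is lower with overlap, and that of Ddx19b over Ddx19a overlaps widely.

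Helicases of translation and mRNA storage showed no call in limma on the deposited scale, with 0 of 2 tested at the adjusted threshold and 0 at an unadjusted p under 0.05. The authors' deposited table has 1 of 3 higher, Ddx3y. Ddx3x, which opens structured leaders for the scanning ribosome, was at 44.5, 50.1, 43.4, 38.8 and 43.7 FPKM in the knockout libraries and at 58.0, 54.4, 41.8, 51.0 and 47.1 FPKM in the control libraries. Its groups overlapped, and its change was -0.19 as deposited and 0.19 with median-of-ratios scaling, not called in either (limma adjusted p = 0.190 and 0.150). Its Y-linked copy Ddx3y was at 29.3, 40.3, 40.3, 23.4 and 35.1 FPKM in the knockout libraries and at 28.2, 26.95, 30.2, 27.7 and 23.5 FPKM in the control libraries. Ddx3y was thus read in all 10 libraries, while Xist stayed at 0.01 to 0.21 FPKM in knockout and 0.08 to 0.46 FPKM in control libraries. The summed FPKM of 3 other Y-linked genes was 33.9 to 48.8 in knockout and 42.2 to 76.9 in control libraries, and the 1 of them tested, Eif2s3y, was called lower (change -0.40, limma adjusted p = 0.0464) but not in the authors' deposited table. The limma p of Eif2s3y was just under the threshold, and its result with median-of-ratios scaling is not given here. The change of Ddx3y was 0.27 (limma adjusted p = 0.132), and 0.64 with median-of-ratios scaling (limma adjusted p = 0.000424). The pseudogene Gm4017 overlaps Ddx3y on the same strand and was at 49.3 FPKM in knockout and 53.4 FPKM in control libraries, so its reads and those of Ddx3y may be mixed.

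Ddx6, which holds mRNA in P-bodies and promotes decapping, was under the filter at 7.50 ± 0.71 FPKM in knockout and 12.1 ± 1.98 FPKM in control libraries. The groups did not overlap. With the filter set to 1 FPKM, Ddx6 changed by -0.62 (SE 0.13, limma adjusted p = 0.00201), in a fit in which 13.4% of 13448 genes were called higher and 36.4% lower. The authors' deposited table gives it a log2 fold change of -0.26 (adjusted p = 0.216). Of 7 tested decay and storage partners of Ddx6, 0 were called in limma on the deposited scale and 0 had an unadjusted p under 0.05. With median-of-ratios scaling 3 were called higher and 0 lower (background 44.2% and 11.8%). The authors' deposited table has 4 of the 7 higher and 0 lower, against 17.1% and 11.5% of its wider set of genes, which is not a matched background. The eIF4A group holds the DEAD-box engine of translation start and its regulators. Eif4a1 was at 949.9 ± 158 FPKM in knockout and 519 ± 65.6 FPKM in control libraries (change 0.86), its cofactor Eif4h at 332 ± 45.1 FPKM in knockout and 214 ± 16.0 FPKM in control libraries (change 0.62). Pdcd4, an inhibitor of eIF4A, was at 22.3 ± 4.87 FPKM in knockout and 51.8 ± 18.9 FPKM in control libraries (change -1.15). These 3 were called under all scalings. Of the 7 genes of this group 3 were higher and 2 lower on the deposited scale (background 21.1% and 31.6%). Eif4a2 was the other lower one (change -0.62). It was not called with median-of-ratios scaling (-0.23), under which 5 were higher and 1 lower (background 44.2% and 11.8%), or in the authors' deposited table (log2 fold change -0.17, adjusted p = 0.422).

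Ddx58, the tested helicase of innate sensing, fell on the deposited scale. It encodes RIG-I, which binds viral RNA ends and signals through Mavs. It was at 20.3, 17.6, 18.7, 9.29 and 19.0 FPKM in the knockout libraries and at 28.5, 21.8, 27.8, 22.4 and 21.3 FPKM in the control libraries. CKO12 was far below the other knockouts, and no knockout library reached a control. The change was -0.53 (SE 0.18, limma adjusted p = 0.0231), and -0.34 without CKO12 (limma adjusted p = 0.0365). It was not called without WT2 (limma adjusted p = 0.0606), with median-of-ratios scaling (-0.16, limma adjusted p = 0.384) or in the authors' deposited table (log2 fold change -0.13, adjusted p = 0.597).

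Ddx60, an interferon-induced helicase described as a cofactor of RIG-I, was at 4.99, 4.57, 4.37, 3.26 and 4.89 FPKM in the knockout libraries and at 11.3, 10.2, 10.5, 8.82 and 5.80 FPKM in the control libraries. It was under the filter, and its groups did not overlap. With the filter of 1 FPKM its change was -0.91 (SE 0.17, limma adjusted p = 0.000982), and the authors' deposited table also has it lower (log2 fold change -0.75, adjusted p = 0.000293). Of 9 tested genes of the RIG-I pathway 0 were called higher and 3 lower, with a median change of -0.29. Over all tested genes 21.1% were called higher and 31.6% lower, with a median of -0.12, so the share called lower was near the background. Rnf135, a ubiquitin ligase for RIG-I, was at 10.1 ± 1.54 FPKM in knockout and 17.4 ± 3.60 FPKM in control libraries (change -0.72). Ifih1 (MDA5), a sister sensor, was at 8.74 ± 1.603 FPKM in knockout and 14.1 ± 2.38 FPKM in control libraries (change -0.63), and Trim25, another ligase of the pathway, at 13.2 ± 2.44 FPKM in knockout and 17.7 ± 2.45 FPKM in control libraries (change -0.40). With median-of-ratios scaling 2 of the 9 were called higher and 0 lower (background 44.2% and 11.8%), and these 3 were not called. The adaptor Mavs was not called under any scaling (20.3 ± 1.72 FPKM in knockout, 22.3 ± 3.55 FPKM in control libraries). Macrophage markers (3 of 3 tested), megakaryocyte markers (7 of 7) and sort and stem cell markers (5 of 8) were also called lower on the deposited scale. The part of any of these cells in the levels of the sensors was not tested.

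Ddx1 stood outside these groups and had the third largest rise. It works with the tRNA ligase Rtcb in rejoining the exons of tRNA and of the Xbp1 mRNA. Its level was 57.1, 63.5, 60.9, 49.4 and 64.3 FPKM in the knockout libraries and 41.7, 28.7, 30.6, 28.5 and 33.2 FPKM in the control libraries. The groups did not overlap and the change was 0.85 (SE 0.13, limma adjusted p = 7.41e-05), called under all scalings. Of 3 tested partners 1 was called higher (background 21.1%), and 3 of 3 with median-of-ratios scaling (background 44.2%). Rtcb, the ligase itself, was at 149 ± 13.6 FPKM in knockout and 111 ± 11.8 FPKM in control libraries (change 0.42).

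The remaining helicases were not called on the deposited scale or were under the filter. Ddx11, a DNA helicase of sister chromatid cohesion, was at 14.3 ± 3.55 FPKM in knockout and 13.6 ± 2.59 FPKM in control libraries (change 0.05, limma adjusted p = 0.825). It was called higher with median-of-ratios scaling (0.41, limma adjusted p = 0.0467) and in the authors' deposited table (log2 fold change 0.52, adjusted p = 0.0109). Ddx28, of the mitochondrial ribosome, was at 10.4 ± 1.38 FPKM in knockout and 8.92 ± 0.595 FPKM in control libraries and under the filter, and it shares its locus with Dus2 on the opposite strand. The authors' deposited table has Ddx28 higher (log2 fold change 0.62, adjusted p = 1.26e-06). Ddx59 was at 4.66 ± 1.78 FPKM in knockout and 6.38 ± 1.21 FPKM in control libraries. The germ cell helicase Ddx4 (Vasa) was at 1.78 ± 0.447 FPKM in knockout and 2.09 ± 0.464 FPKM in control libraries. Ddx43, another germ cell gene, was listed at 0 in 4 knockout and 2 control libraries and reached 0.04 FPKM in the other knockout library and at most 0.15 FPKM in the controls.

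Single libraries leaned across the family. CKO12 was the lowest knockout library for 18 of the 27 tested helicases and CKO9 the highest for 15, while WT2 was the highest control for 20. After median-of-ratios scaling CKO12 was the lowest for 9 and CKO13 for 13. The median coefficient of variation of the 27 genes within a group was 10.9% over the knockout and 14.2% over the control libraries.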

How the data were processed

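RNA of 10 samples of sorted mouse stem cells, 5 knockout and 5 control, was read from 1 deposited table of 52097 genes. Per the submitters' processing notes, Bowtie 0.12.9, Cufflinks 2.1.1, HTSeq and build mm10 were used; which tool made which column, and the strand setting, are not given in the sources used here. The 10 library columns are taken as FPKM made by the authors: the header names no unit, and this was inferred from the values. Per the file headers, the authors ran DESeq2, and its mean over libraries of normalized counts was deposited as 1 signal per gene. From that same run the authors deposited a log2 fold change with its standard error, a test score, and a p-value with its adjusted form. Counts per library were not used here and depth in reads is unknown, so no counting interval is given. The authors' size factors were recovered from the steps of the mean normalized counts of 3734 genes seen in 1 library, of which 99.9% were whole multiples within 0.02.

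Columns were matched to groups by name; their numbers are not those of the sample titles. The labels do not say whether samples are separate animals, so p-values measure only the spread between these samples, which may be technical. The planned count test was not possible without counts, and limma 3.58.1 (R 4.3.3, trend and robust) was fitted to log2(FPKM + 1) of 6913 genes at 10 FPKM or more in at least 5 libraries, a scale that understates the change of low genes. Pairs were compared with exact two-sided permutation tests (Python 3.11.15, SciPy 1.17.1). The fit was tested on simulated data. Alternatives were 4 other scalings, 4 filters, 2 pseudocounts, library weights, covariates and the omission of each library. Gene positions and overlaps are from GENCODE M21, which matched all 52097 identifiers, and promoter windows from RefSeq (GRCm38.p6). Of the helicases 15 overlap another gene.

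The members and gene lists were chosen with earlier results of these data known. All 37 genes are accounted for. Values in every library are given for each called helicase, for the 4 pairs and for Ddx3x, Ddx3y, Ddx41, Ddx58 and Ddx60, and at most 3 called genes with the largest change are named from each partner list; Nxf1, Gle1, Nup214, Mavs, Eif4a2 and Eif2s3y were named after their values were seen. Symbols Nup42, Rtraf and Sting1 of those lists were not matched. Summed B cell markers were 1.17 to 2.72 FPKM in knockout and 0.71 to 3.89 FPKM in control libraries, and T cell markers 0.22 to 0.74 FPKM in knockout and 0.63 to 2.70 FPKM in control libraries. All 4 globin genes were called higher (21.1% of all tested genes), with sums of 1214 to 8151 FPKM in knockout and 216 to 2863 FPKM in control libraries.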

Additional observations from a re-analysis of the deposited data

Results flagged for a closer look

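In 3 of the 70 sets of 5 libraries examined (the 35 helicases that reached 1 FPKM in some library, in each group), 1 library stood apart from the other 4 by Dixon's criterion. Chance alone flags about 1 in 20, or 3.5 sets here. Ddx58 was at 9.29 FPKM in the knockout library CKO12, against 17.63 to 20.34 FPKM in the other knockout libraries. Ddx28 was at 8.09 FPKM in the same library, against 10.69 to 11.75 FPKM in the others. Ddx17 was at 39.05 FPKM in the control library WT2, against 22.88 to 27.42 FPKM in the other controls.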

How the results depend on the processing

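The number of helicases called higher was 10 on the deposited values and 21 with median-of-ratios scaling, 20 with knockouts shifted to the authors' fold changes, 26 in the authors' deposited table and 5 with equal totals. The number called lower was 3 of 27 (31.6% of all tested genes), 1 of 27 with median-of-ratios scaling (11.8%) and 1 of 27 with the shift. It was 5 of 35 with a filter of 1 FPKM (36.4%) and 5 of 37 with no filter. The share of all genes called is not given here for the shift, equal totals, no filter or the settings that follow. Leaving out each library gave 8 to 14 higher and 2 to 4 lower; 14 was reached without CKO12. The other settings gave 7 to 14 higher and 2 to 4 lower, with 20 to 37 helicases tested. No called helicase reversed under any setting run. Ddx1, Ddx17, Ddx20, Ddx27, Ddx39 and Ddx39b kept their calls in each setting in which they were tested (Ddx39 between 1.52 and 2.05, Ddx17 between -1.12 and -0.53). Ddx50 lost its call under median-of-ratios scaling, the shift and in the authors' table, Ddx58 under these and with no filter, with the Y-linked score or without WT2. Ddx18 and Ddx56 lost theirs with equal totals and with bone matrix and granulocyte covariates, and Ddx55 with equal totals. The cause of these losses was not tested. The ratio of Ddx17 over Ddx5 ranged from -0.70 to -0.49 when a library was left out and missed the threshold without CKO7 (-0.58, adjusted p = 0.0529) or CKO12 (-0.51, adjusted p = 0.0529) by the exact permutation test. The other 3 ratios kept their side of the threshold. No paired analysis was possible because the library columns do not carry the replicate numbers of the sample titles. Without counts per library, precision for helicases under a few FPKM is unknown.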
